A study of Mus musculus with 12 samples.

Results

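Major urinary protein (Mup) genes were examined in liver RNA-Seq of 12 mice. The members are the 10 rows of the expression table whose gene name is Mup1, Mup2, Mup3, Mup7, Mup10, Mup11, Mup14, Mup15, Mup20 or Mup21, out of 55385 features and out of 49 features with a Mup name. All mice were C57BL6 males 7 weeks old that received 500000000 pfu of adenovirus in total and were killed on day 7. The 4 mice of GULL_control received a control adenovirus named Lac together with the pAdV5 vector virus. The 4 mice of mGULL_knockdown received an adenovirus with a short hairpin RNA against mGULL, a mouse long noncoding RNA, together with pAdV5. The 4 mice of hGULL_rescue received the same hairpin virus with a virus expressing hGULL, the human counterpart of mGULL, so that the knockdown and the rescue groups share the hairpin and all 3 groups carry adenovirus. The experiment asks whether hGULL undoes in mouse liver what loss of mGULL does. The level of mGULL itself was not analysed here.

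Major urinary proteins are small secreted lipocalins, proteins that hold hydrophobic ligands in a barrel-shaped pocket. Hepatocytes make them in large amounts, and they pass into the urine, where they bind volatile pheromones and slow their release. In adult liver their transcription is known to follow the pulses of growth hormone that are typical of males, through the growth hormone receptor and STAT5B, and it is higher in males than in females. Mup20 encodes darcin, a male scent protein that attracts females.

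In the RefSeq annotation of GRCm38.p6, the build of the deposited files, all 10 members lie on chromosome 4, between 60066469 and 62150841. Within these 2084373 bp the order is Mup7, Mup2, Mup1, Mup10, Mup11, Mup14, Mup15, Mup20, Mup3 and Mup21. Mup7 extends from 60066469 to 60070475, Mup14 from 61300037 to 61304089, Mup15 from 61435787 to 61439833, Mup20 from 62011337 to 62054143, Mup3 from 62083476 to 62087317 and Mup21 from 62147832 to 62150841.

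The upstream sequences are shown because they divide the members by how alike they are. RefSeq promoter windows were at hand for 8 members. The 70 bases before the Mup7 start and the best ungapped match to them upstream of 4 other members are printed 5′ to 3′ on the minus strand of chromosome 4. Capitals mark bases that differ from Mup7 at the same position of the block. They lie at chr4:60070476-60070545 for Mup7, chr4:60139991-60140060 for Mup2, chr4:60582291-60582360 for Mup10, chr4:62087399-62087468 for Mup3 and chr4:62150917-62150986 for Mup21.
Mup7: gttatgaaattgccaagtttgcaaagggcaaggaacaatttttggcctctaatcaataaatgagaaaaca
Mup2: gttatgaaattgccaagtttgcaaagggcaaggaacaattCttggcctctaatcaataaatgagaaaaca
Mup10: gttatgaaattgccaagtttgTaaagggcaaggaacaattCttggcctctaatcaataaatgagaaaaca
Mup3: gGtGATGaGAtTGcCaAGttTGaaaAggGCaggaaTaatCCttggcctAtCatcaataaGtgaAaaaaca
Mup21: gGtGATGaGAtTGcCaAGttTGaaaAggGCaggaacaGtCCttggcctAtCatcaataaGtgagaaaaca

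Mup2, Mup11, Mup14 and Mup15 each had 1 difference from Mup7 in this block, and Mup10 had 2. Mup3 and Mup21 had 24 and 23 without allowing gaps. Part of these come from a shift by 1 base, as the letters attgccaagtttg occur in Mup7, Mup3 and Mup21 alike. The counts of 24 and 23 therefore overstate how far these blocks differ. The same division held in the transcripts of a newer annotation (GENCODE vM39). Local alignments among Mup1, Mup2, Mup7, Mup10, Mup11, Mup14 and Mup15 had a median identity of 98.8% (range 95.3% to 99.7%, 21 pairs), against 85.0% (78.3% to 90.5%, 21 pairs) when one of these 7 was aligned with Mup3, Mup20 or Mup21.

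The transcripts also set how far a read can be assigned to one member. Of the 50-base windows in each main transcript, 85.2% of those of Mup21, 83.6% of Mup3 and 49.9% of Mup20 occurred in no transcript of another Mup gene. The share was 17.0% for Mup1, 15.8% for Mup11, 13.8% for Mup10, 6.81% for Mup7, 3.48% for Mup14 and 0.626% for Mup15, and it was 0% for Mup2. With windows of 100 bases Mup3 and Mup21 were at 97.3% and 96.6%, Mup20 at 61.2%, and the other 7 members between 3.12% (Mup2) and 25.6% (Mup1). The read length is not given in the sources used here. How reads that fit several copies were counted is not given in the sources used here. The split of reads among the 7 near-identical members is therefore uncertain, and their sum is given beside them. The sum is uncertain too if such reads were left out or were shared with Mup genes outside the members. Of the 50-base windows, 26.7% were unique in Mup17, 10.4% in Mup18 and 0% in Mup19, which are not members.

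RefSeq promoter windows count from 1 start per gene, which lies inside the gene's annotated span in Mup2, Mup10, Mup11, Mup14 and Mup15, so positions in them are not distances to the ends of the spans given above. In the 250 bases before that start, the letters TTNNGNAA, a C/EBP-type word, occurred on either strand in all 8 members with a window, and in 36.8% of all 32851 promoter windows. The first of the words inside the printed block, TTATGAAA, starts at its second base in Mup7, Mup2 and Mup10. The STAT-type word TTCNNNGAA occurred in 0 of 8 (7.02% of all windows) and TATAAA in 0 of 8 (12.4%). TATATAA, searched after the sequences were read, occurred in 5 of 8 (Mup2, Mup10, Mup15, Mup3 and Mup21; 3.04% of all windows). The position of its first base was counted from the start of the window's transcript, on the strand that reads like the transcript. It was -30 in Mup10, -27 in Mup2, -25 in Mup15, -11 in Mup3 and -8 in Mup21. These words can overlap one another, a match is no evidence of binding, and the absence of a word says only that these letters are not in this window.

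Values are TPM, the number of transcripts per 1000000 after scaling for transcript length, and sum to 1000000 in each sample, so levels can be compared between genes. Read depth is unknown, and the precision of each value is given by the spread between mice. The labels number the 4 samples of a group, and each is taken as 1 mouse. Between 15525 and 16929 features were above 1 TPM in each liver, and the 20 highest genes took 24.7% to 34.2% of all TPM. All 10 hepatocyte markers examined were expressed, and albumin averaged 59560 TPM in control liver.

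The 10 members together took 2.07% of all TPM in control liver (SD 0.574, n = 4). Mup3 had the highest value, 12353 ± 4139 TPM (SD, n = 4), followed by Mup20 with 4436 ± 567 TPM. This order may depend on how shared reads were counted. The ranges of Mup3 and Mup20 did not overlap in control liver, and neither did those of Mup20 and Mup7. Then came Mup7 (1437 ± 705 TPM), Mup21 (870 ± 260), Mup14 (729 ± 164) and Mup11 (661 ± 449), whose neighbouring ranges overlapped. Mup15 followed at 126 ± 69.8 TPM, with every mouse below every Mup11 value. Mup10 (48.6 ± 52.5 TPM), Mup2 (47.7 ± 26.1) and Mup1 (18.6 ± 17.7) were the lowest, and their neighbouring ranges overlapped. Mup3 and Mup20 also ranked first and second in the knockdown and the rescue livers, with ranges that did not overlap each other or the next gene.

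mGULL knockdown was followed by lower Mup levels. All 10 members were lower than in control at the threshold used by the study, for which the unadjusted P had to be under 0.05 and the absolute log2 fold change over 0.5, in a limma fit over 16378 genes. In the same comparison 2.3% of all genes tested were lower and 5.35% were higher at this threshold. Mup3 no longer passed without the filter on low values (9 members), and neither Mup3 nor Mup20, the 2 most abundant members, passed after quantile normalization (8 members). With array weights Mup1 and Mup3 did not pass (8 members). The members' median log2 fold change was -1.66, with a range of -2.59 to -0.59, and the median over all genes was 0.09. Mup7, Mup14 and Mup15 also had a Benjamini-Hochberg adjusted p below 0.05, a level that 0.794% of all genes reached in the lower direction and 2.44% in the higher direction. In Mup14, Mup15 and Mup20 the 4 knockdown livers all lay below the 4 control livers, as did those of 2.06% of all genes. In bulk liver, fewer cells that make a transcript and less of it per cell cannot be told apart.

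**Figure D1:**
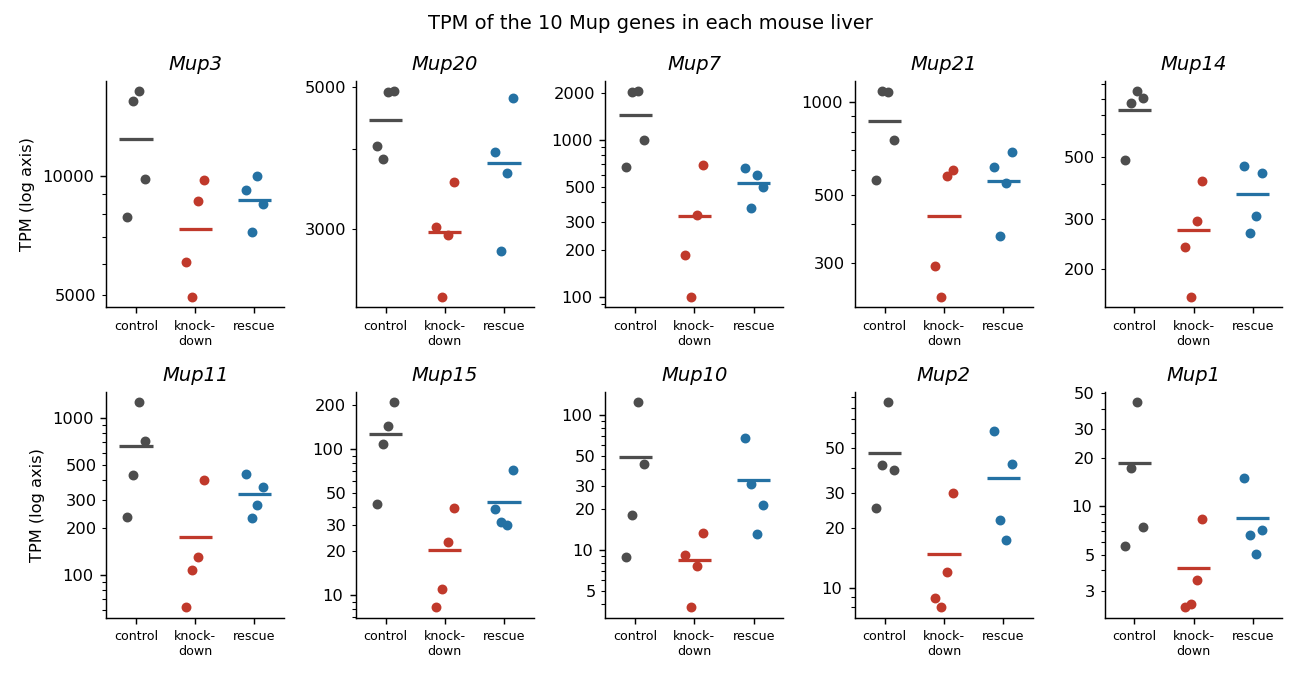
TPM on a log axis (own scale in each panel) of the 10 Mup genes, ordered by mean level in control liver. Points are single mice, placed from left to right by replicate number, and lines are group means of 4 mice. Mup14, Mup15 and Mup20 show no overlap between control and knockdown, and the rescue mean lies between the other two means in every panel.

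Mup15, one of the near-identical copies, had the largest log2 fold change of the members. Its levels were 42.0, 108, 143 and 209 TPM in control, 8.20, 10.9, 23.1 and 39.6 TPM in knockdown, and 38.6, 31.8, 30.1 and 71.8 TPM in rescue. The highest knockdown liver was just below the lowest control liver. The log2 fold change was -2.59 (SE 0.52, limma adjusted p = 0.0231), and the exact two-sided permutation p was 0.0286, the smallest that 4 mice against 4 can give.

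Mup14 varied less in control than the other near-identical members (coefficient of variation 22.5%). It measured 487, 773, 850 and 805 TPM in control, 239, 160, 296 and 409 TPM in knockdown, and 463, 269, 307 and 439 TPM in rescue. Both the knockdown and the rescue livers lay wholly below control. The log2 fold change after knockdown was -1.45 (SE 0.28, limma adjusted p = 0.0191, exact permutation p = 0.0286).

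Mup7, the most abundant of the near-identical members, measured 677, 2033, 2041 and 997 TPM in control. It measured 186, 100.1, 330 and 695 TPM in knockdown and 666, 370, 595 and 502 TPM in rescue. Knockdown replicate 4 was above control replicate 1, and the other 3 knockdown livers were below every control. The log2 fold change was -2.33 (SE 0.51, limma adjusted p = 0.0324, exact permutation p = 0.0571).

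Mup20, the darcin gene, changed least on the log scale but with little spread. It measured 4036, 3862, 4921 and 4926 TPM in control, 3022, 2345, 2926 and 3550 TPM in knockdown, and 3958, 2765, 3661 and 4813 TPM in rescue. All knockdown livers were below all control livers, while 3 rescue livers exceeded every knockdown liver. The log2 fold change was -0.59 (SE 0.18), with a limma adjusted p of 0.0890.

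Mup3, the most abundant Mup transcript here, measured 7886, 15398, 16317 and 9810 TPM in control. It measured 6081, 4957, 8620 and 9775 TPM in knockdown and 9197, 7199, 9980 and 8468 TPM in rescue. Control replicates 2 and 3 were high and control replicates 1 and 4 reached into the range of the knockdown livers or close to it. The log2 fold change was -0.73 (SE 0.27), with a limma adjusted p of 0.147.

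Mup21, the other member whose transcript is mostly unique, measured 558, 1085, 1083 and 754 TPM in control and 292, 232, 573 and 603 TPM in knockdown. It measured 613, 367, 545 and 689 TPM in rescue. Control replicate 1 was below the 2 highest knockdown livers. The log2 fold change was -1.10 (SE 0.32), with a limma adjusted p of 0.0823.

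Mup11 ranged more widely in control. It measured 233, 432, 1267 and 710 TPM there, 61.9, 107, 129 and 403 TPM in knockdown, and 439, 230, 277 and 361 TPM in rescue. Its log2 fold change after knockdown was -2.00 (SE 0.55, limma adjusted p = 0.0674).

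The 3 members with low levels overlapped between the groups. Mup10 measured 8.89, 18.0, 124 and 43.3 TPM in control, 9.16, 3.76, 7.62 and 13.3 TPM in knockdown, and 67.2, 30.8, 13.1 and 21.4 TPM in rescue. Mup2 measured 25.2, 41.5, 85.4 and 38.9 TPM in control, 8.93, 7.995, 12.1 and 29.9 TPM in knockdown, and 61.5, 21.8, 17.4 and 41.8 TPM in rescue. Mup1 measured 5.68, 17.2, 44.1 and 7.47 TPM in control, 2.36, 2.46, 3.47 and 8.36 TPM in knockdown, and 14.9, 6.61, 5.06 and 7.11 TPM in rescue. Control replicate 3 was the highest liver for each of these genes, and knockdown replicate 4 the highest of its group. Their log2 fold changes were -1.86, -1.68 and -1.64 for Mup10, Mup2 and Mup1, with limma adjusted p-values of 0.147, 0.0710 and 0.1099.

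The count of members at an adjusted p under 0.05 depended on single mice. It was 0 without control replicate 2, 3 or 4, 1 without knockdown replicate 2, 5 without knockdown replicate 4 and 8 without control replicate 1. The count at the study's threshold stayed between 7 and 10, and every member was lower in knockdown than in control whichever mouse was left out.

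**Figure D2:**
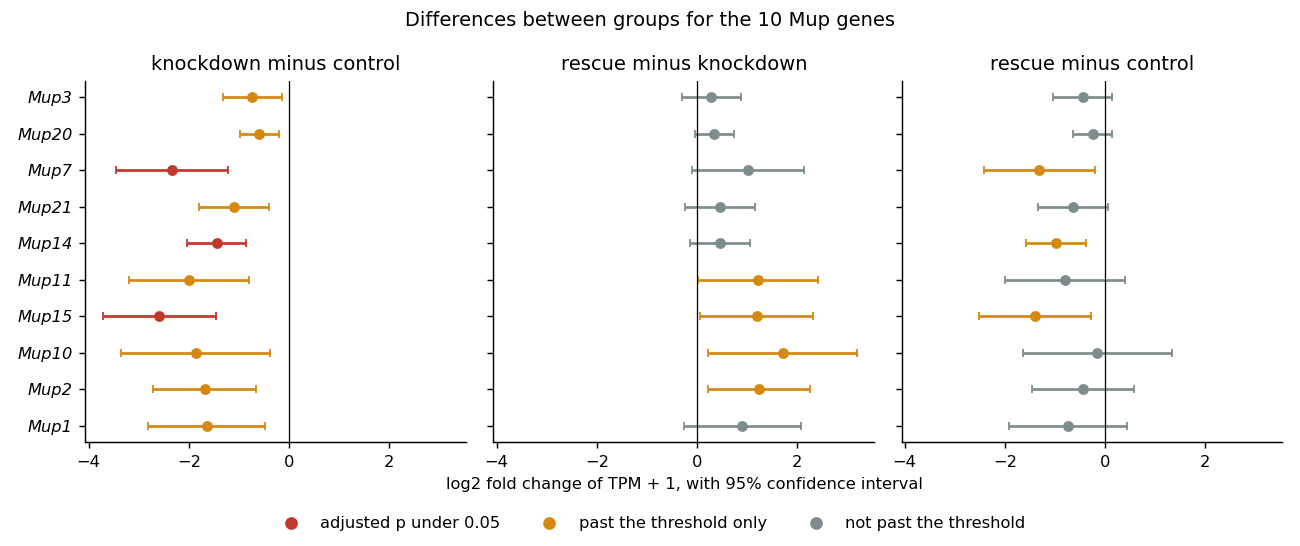
Log2 fold change of TPM + 1 (horizontal axis) with 95% confidence intervals from limma for the 10 Mup genes in the 3 comparisons, from 4 mice per group. All 10 intervals lie below 0 for knockdown minus control. For rescue minus knockdown 4 intervals lie above 0, and for rescue minus control 3 lie below 0.

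Because reads may be shared among copies, the summed level was also compared, as a description with no test. The 10 members summed to 13960, 23766, 26876 and 18300 TPM in control, 9910, 7926, 12920 and 15526 TPM in knockdown, and 15517, 11290, 15430 and 15414 TPM in rescue. Knockdown replicate 4 lay above control replicate 1, so the groups overlapped. The log2 ratio of the group means was -0.84 for knockdown against control. The 7 near-identical members summed to 3066 ± 1281 TPM in control, 827 ± 542 in knockdown and 1349 ± 333 in rescue (SD, n = 4 each), a log2 ratio of -1.89 after knockdown. Without Mup3 the other 9 members summed to 6073 to 10558 TPM in control and 2969 to 5751 TPM in knockdown, with no overlap. The groups did overlap for the 7 near-identical members (lowest control 1479, highest knockdown 1598 TPM) and for the 8 members other than Mup3 and Mup20 (2037 and 2201 TPM).

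**Figure D3:**
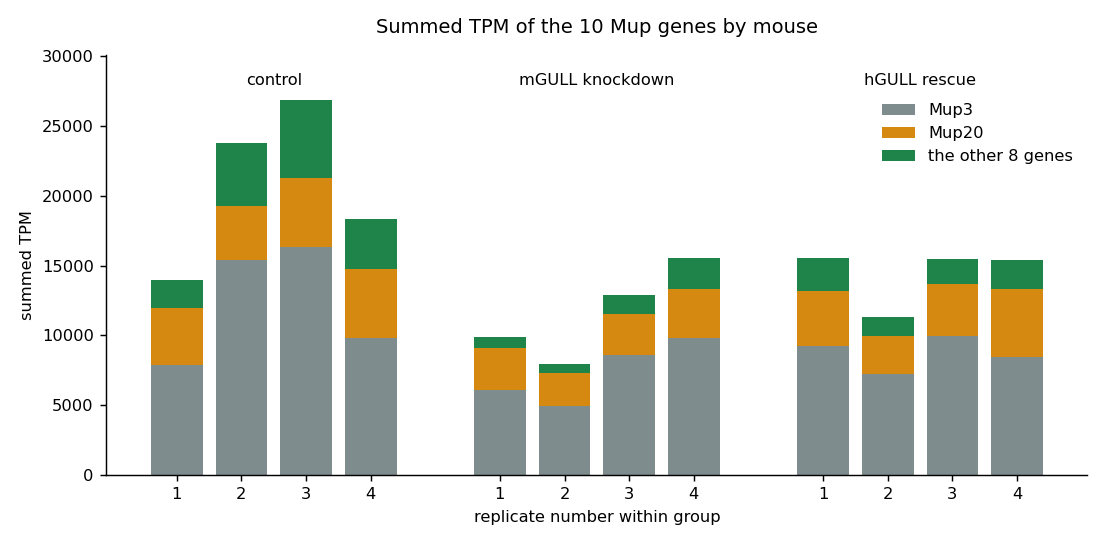
Summed TPM of the 10 Mup genes in each mouse (vertical axis, from 0), stacked as Mup3, Mup20 and the other 8 genes, with mice numbered as in the labels. The knockdown livers lie between 7926 and 15526 TPM and the control livers between 13960 and 26876 TPM, and Mup3 and Mup20 make up most of each bar.

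The make-up of the sum differed as well. Mup3 held 58.9% ± 4.89 of the members' TPM in control and 63.4% ± 2.32 in knockdown (SD, n = 4 each), with overlapping ranges, and Mup20 held 22.6% ± 6.25 and 26.4% ± 4.22. Mup7 held 6.61% ± 1.75 in control and 2.54% ± 1.39 in knockdown, Mup14 3.58% ± 0.566 and 2.34% ± 0.257, and Mup15 0.607% ± 0.371 and 0.163% ± 0.0725. The shares of Mup7, Mup14 and Mup15 were lower in every knockdown liver than in any control liver. These shares were given no test, and their levels may depend on how shared reads were counted.

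Adding hGULL was followed by higher means for all 10 members than in knockdown liver. Of these, Mup2, Mup10, Mup11 and Mup15 were higher at the study's threshold, which 2.33% of all genes passed in the higher and 0.672% in the lower direction. The log2 fold changes were 1.71 for Mup10 (SE 0.68), 1.24 for Mup2 (SE 0.47), 1.21 for Mup11 (SE 0.55) and 1.20 for Mup15 (SE 0.52). No member reached an adjusted p under 0.05 in limma (range 0.415 to 0.695), and of all genes tested 0% did. At an unadjusted P under 0.05 there were 4 members and 1757 genes.

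The members' median log2 fold change was 0.96 and the median over all genes 0.09. For no member did the rescue livers all lie above the knockdown livers, which 5.4% of all genes did. The abundant transcripts differed least, with 95% confidence intervals of -0.30 to 0.87 for Mup3 and -0.04 to 0.74 for Mup20, so that differences of either sign remained within the interval. The summed level had a log2 ratio of 0.32. The count of 4 fell to 0 without knockdown replicate 2 or rescue replicate 1, to 1 without knockdown replicate 1 or rescue replicate 4, and rose to 7 without knockdown replicate 4. Knockdown livers enter both this comparison and the preceding one, so the 2 sets of values are not independent.

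Rescue livers were also compared with control livers. All 10 means on the log scale were lower in rescue, although Mup3 turned to 0.020 after quantile normalization and Mup10 turned positive without control replicate 3, control replicate 4 or rescue replicate 3. At the study's threshold, Mup7, Mup14 and Mup15 were lower. Of all genes, 0.641% were lower and 6.84% higher at this threshold. The log2 fold changes were -1.40 for Mup15 (SE 0.52), -1.31 for Mup7 (SE 0.51) and -0.98 for Mup14 (SE 0.28). No member reached an adjusted p under 0.05 in limma (lowest 0.0708, for Mup14), while 0.0244% of all genes did in the lower and 2.12% in the higher direction. At an unadjusted P under 0.05 there were 3 members, and 4149 of all 16378 genes tested.

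For Mup7 and Mup14 all rescue livers lay below all control livers, as they did for 0.855% of genes. The members' median log2 fold change was -0.69, with a median of 0.17 over all genes, and the log2 ratio of the sums was -0.52. Mup10 was the nearest to control, with a log2 fold change of -0.15 and a 95% confidence interval of -1.64 to 1.33. Without control replicate 1 the threshold count was 6 and the adjusted count 2 (Mup14 and Mup15), and without knockdown replicate 2 the adjusted count was 1 (Mup14). Control livers enter this comparison and that of knockdown with control.

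The members varied together from mouse to mouse. Over the 45 pairs, the median Pearson correlation of log2(TPM + 1) was 0.843 over the 12 samples (range 0.627 to 0.954). After each group's mean was subtracted it was 0.716 (range 0.356 to 0.949). Mup14 had the highest median within-group correlation with the other members (0.794) and Mup10 the lowest (0.528). The points share libraries and, for the near-identical copies, possibly reads, so these values are a description.

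The rest of the family was read for comparison. Of the 39 other Mup features, 23 had a mean of at least 1 TPM and were tested, and 13 of them were lower after knockdown at the study's threshold. The coding genes Mup5, Mup13, Mup16, Mup17, Mup18, Mup19 and Mup22 and the pseudogene Mup-ps18 were also lower at an adjusted p under 0.05. Mup17 was the most abundant of them, with a mean of 1810 TPM in control, 440 in knockdown and 751 in rescue (knockdown against control log2 fold change -2.46, limma adjusted p = 0.0476). Mup19 had the largest log2 fold change of the tested Mup features outside the members, from 216 to 42.4 TPM (log2 fold change -2.66, limma adjusted p = 0.0223). The other 5 that passed the threshold alone were Mup9, Mup12, Mup-ps19, Mup-ps21 and Mup-ps22, with log2 fold changes from -1.99 for Mup12 to -0.71 for Mup-ps21.

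The remaining 10 tested features did not pass. Mup6 and Mup8, both coding, had log2 fold changes of 0.84 and -0.86, and the pseudogenes Mup-ps4, Mup-ps12, Mup-ps13, Mup-ps14, Mup-ps16, Mup-ps17, Mup-ps20 and Mup-ps23 lay between -0.36 and 1.20. In rescue against knockdown 5 of the 23 were higher (Mup12, Mup18, Mup19, Mup-ps18 and Mup-ps21). In rescue against control 5 were lower (Mup13, Mup16, Mup19, Mup-ps18 and Mup-ps22) and Mup-ps14 was higher, with 0 at an adjusted p under 0.05 in limma and 6 at an unadjusted P under 0.05.

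The 12 coding genes outside the members summed to 3038 ± 1579 TPM in control, 783 ± 744 in knockdown and 1373 ± 447 in rescue (SD, n = 4 each). All 49 Mup features together summed to 24234 ± 7101, 12642 ± 4059 and 16198 ± 2487 TPM, with log2 ratios of -0.94 after knockdown, 0.36 for rescue against knockdown and -0.58 for rescue against control. Control and knockdown overlapped in both of these sums.

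Genes of the growth hormone pathway and other known regulators of Mup transcription were read next (21 tested). After knockdown 2 were lower at the study's threshold and 0 were higher, with a median log2 fold change of -0.0071. Igf1, the main growth hormone effector made by the liver, fell from 177 ± 21.6 to 96.6 ± 23.7 TPM and stood at 137 ± 14.4 TPM in rescue. Its log2 fold change was -0.89 (limma adjusted p = 0.0139) after knockdown, and 0.52 (unadjusted p = 0.00528, adjusted p = 0.363 in limma) for rescue against knockdown. Socs2, a feedback inhibitor induced by growth hormone, was at 7.38 ± 1.67 TPM in control, 3.60 ± 3.08 in knockdown and 5.10 ± 4.11 in rescue (log2 fold change after knockdown -1.06, limma adjusted p = 0.194).

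Transcripts of the pathway's upstream parts did not pass. The receptor gene Ghr had a log2 fold change of -0.20, the receptor's kinase Jak2 0.12, and the transcription factor Stat5b 0.16. Stat5a was just short of the threshold, at 0.48 (limma unadjusted p = 0.00451, adjusted p = 0.0776). Cish and Igfals, also on the list, did not pass either, at -0.29 and -0.07 (limma adjusted p = 0.588 and 0.837).

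Other genes known to be expressed at a higher level in male liver were read as a list of 20, all tested. After knockdown 8 were lower and 3 higher at the study's threshold, and 3 were lower at an adjusted p under 0.05. The median log2 fold change was -0.41. Selenbp2 fell from 679 ± 81.0 to 166 ± 86.9 TPM (log2 fold change -2.15, limma adjusted p = 0.00747), and Cyp7b1, an oxysterol and steroid hydroxylase, from 582 ± 84.1 to 291 ± 142 TPM (-1.09, limma adjusted p = 0.0306). Ugt2b38, a glucuronosyltransferase gene, fell from 16.8 ± 7.05 to 5.09 ± 3.71 TPM (-1.60, limma adjusted p = 0.0396).

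Among the remaining lower genes, Moxd1 had a log2 fold change of -2.25, Susd4 -0.88 and Serpina1e, an antitrypsin-type protease inhibitor gene, -0.81, with limma adjusted p-values of 0.173, 0.133 and 0.0743. The 3 higher genes were the cytochrome P450 genes Cyp4a12a (0.72), Cyp4a12b (0.55) and Cyp2u1 (0.51), named after their values were seen. Cyp4a12a and Cyp4a12b are near-identical copies that may share reads. In rescue against knockdown, Selenbp2 (log2 fold change 1.17) and Cyp7b1 (0.63) were higher, with limma adjusted p-values of 0.318 and 0.411. The list summed to 15346 to 20154 TPM in control, 10143 to 15249 in knockdown and 12100 to 13360 in rescue. Serpina1e alone averaged 8592 TPM in control, 4903 in knockdown and 4909 in rescue. The sum therefore follows this gene most and does not show a fall across the list.

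Of 20 genes known to be higher in female liver, 12 were tested, and 7 were higher and 0 lower after knockdown at the study's threshold, with 5 at an adjusted p under 0.05. The rest had a mean under 1 TPM over the 12 livers. Genes low in every group are thus left out, while a gene low in control could enter through the other groups. The counts and the median hold for the tested genes only. The median log2 fold change was 0.93. Cyp2b9 stood at 0.802 ± 0.681 TPM in control and 37.1 ± 39.6 in knockdown (log2 fold change 3.72, limma adjusted p = 0.0332). It was tested only because of its knockdown and rescue levels. Cyp2a4, a steroid hydroxylase gene, stood at 14.9 ± 12.8 and 178 ± 135 TPM (3.43, limma adjusted p = 0.0360). Cyp2b9 and Cyp2a4 belong to groups of close P450 copies whose reads may be shared. Hamp2, a hepcidin gene, had a log2 fold change of 1.90, Acot3, an acyl-CoA thioesterase gene, 1.67 and Abcd2, a peroxisomal transporter gene, 1.31, with limma adjusted p-values of 0.0153, 0.0194 and 0.0378. Cyp2b10 had 1.60 (limma adjusted p = 0.0531).

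In rescue against knockdown 0 of the 12 female-biased genes passed the threshold in limma in either direction, with a median of -0.09. In rescue against control 8 of 12 were higher at the study's threshold and 0 at an adjusted p under 0.05. Of all genes, 6.84% and 2.12% were higher at these levels. The 8 include Cyp2b9, which was tested only because of its knockdown and rescue levels.

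**Figure D4:**
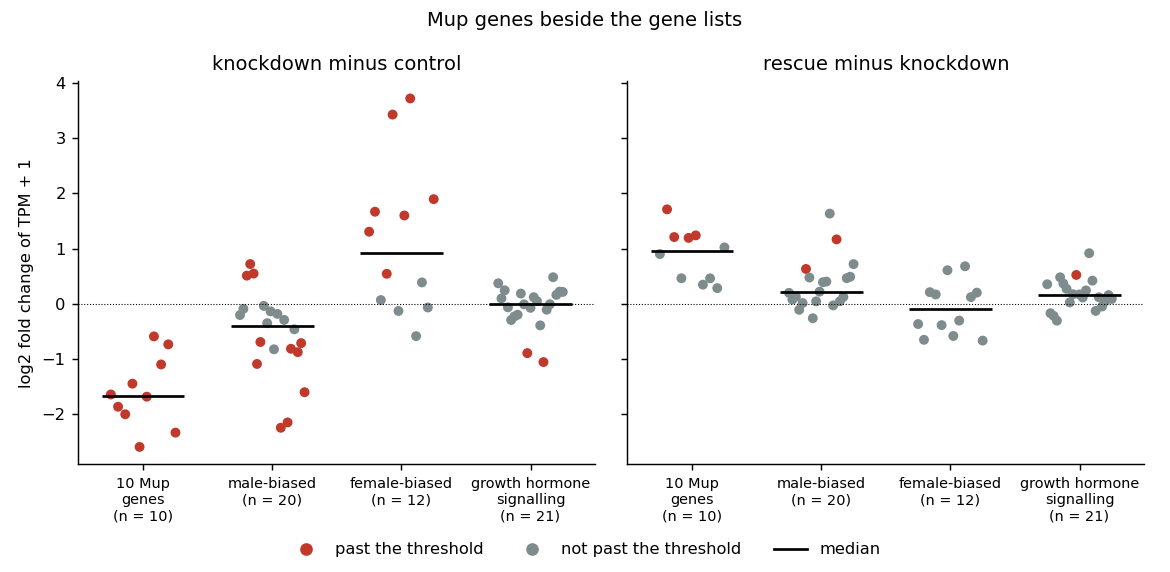
Log2 fold change of TPM + 1 (vertical axis) of the 10 Mup genes beside the tested genes of 3 lists, for knockdown minus control (left) and rescue minus knockdown (right). Each point is a gene, red where it passed the study's threshold, and lines are medians. After knockdown the medians are -1.66 for the Mup genes, -0.41 for the male-biased list and 0.93 for the female-biased list.

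Other secreted proteins of the liver were compared to see how far the differences extended. Of 10 tested lipocalins outside the family, Obp2a alone passed after knockdown, and it was higher (log2 fold change 0.96, limma adjusted p = 0.180). Obp2a and Ptgds (0.36) had positive values and the others negative ones, with a list median of -0.14. The abundant lipocalins Rbp4, the retinol carrier, and Ambp had -0.03 and -0.14. Orm1 had -0.43, Orm2 -0.515, Orm3 -0.51 and Apom -0.23. Of 22 acute phase genes 3 were higher and 4 lower, with 0 at an adjusted p under 0.05 in limma and a median of -0.39. The metallothioneins Mt2 (0.99) and Mt1 (0.94) and Saa3 (0.64) were the higher ones, and Hamp (-0.71), Saa4 (-0.60), Crp (-0.56) and Fgb (-0.52) the lower ones. Of 23 abundant secreted hepatocyte proteins 3 were lower (Apoa1, Serpina3k and Fgb, from -0.60 to -0.52), with a median of -0.13. Albumin (Alb) measured 59560 ± 11631 TPM in control and 59764 ± 2839 in knockdown (SD, n = 4 each).

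Markers of the cell types a liver sample can hold were set beside these values. Of 10 hepatocyte markers, Apoa1, Pck1 and Tat were lower after knockdown and 0 higher, with a median log2 fold change of -0.22. Their summed level ranged from 90299 to 126267 TPM in control, 89537 to 106363 in knockdown and 78870 to 95161 in rescue. Of 8 endothelial markers, Stab2 (0.54, limma adjusted p = 0.0476) and Oit3 (0.53) were higher, with a list median of 0.41. The endothelial list summed to 132 to 228 TPM in control, 217 to 294 in knockdown and 213 to 256 in rescue.

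Of 12 Kupffer cell and macrophage markers, Marco was lower (-1.04), and of 4 tested cholangiocyte markers, Sox9 was higher (0.64). Of 12 T and NK cell, 3 B cell, 4 neutrophil and 8 stellate cell markers 0 passed after knockdown at the study's threshold. The medians of these lists were 0.03, 0.38, 0.26 and 0.32 in that order, with 0.09 over all genes. In rescue against knockdown, the neutrophil genes S100a8 (-0.78) and S100a9 (-0.84) were lower and Gzmb (1.03), of the T and NK cell list, was higher. The part of other cell types in the Mup results was not tested.

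Outside the family, the genes whose log2(TPM + 1) followed the log2 sum of the members most closely over the 12 samples were Gm38070 (Pearson r = 0.96, and 0.926 within groups), Sult2a8 (0.956 and 0.95), Ces3b (0.942 and 0.87), Syt1 (0.94 and 0.917) and Hal (0.935 and 0.91). Gm38070 has no assigned function in the table. Sult2a8 encodes a sulfotransferase, Ces3b a carboxylesterase, Syt1 a calcium sensor of vesicle release and Hal the first enzyme of histidine breakdown. Ces3b measured 307 ± 70.9 TPM in control, 153 ± 53.7 in knockdown and 196 ± 32.8 in rescue (SD, n = 4 each). After knockdown the log2 fold changes were -0.84 for Gm38070, -0.70 for Sult2a8, -1.03 for Ces3b, -0.71 for Syt1 and -0.55 for Hal. These genes were picked for their correlation, and the sum they follow differs between the same groups, so these values are a description.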

How the data were processed

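Liver RNA-Seq of 12 mice was used, 4 per group, grouped by the sample labels. The authors trimmed reads with fastp 0.23.2, checked them with FastQC 0.11.8, aligned them with HISAT2 2.2.1.0 to GRCm38.p6, counted them (featureCounts, Subread 2.0, per the processing notes) and deposited TPM values from strand-specific libraries. TPM keep no read depth, so no interval for counting error is given. The sources name the injection route differently.

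Log2(TPM + 1) of the 16378 genes with a mean TPM of at least 1 was fitted with limma 3.58.1 in R 4.3.3, with 1 model of 3 groups, empirical Bayes variances with a trend and Benjamini-Hochberg adjustment over all genes tested. Fold changes are on this scale, which understates changes of low genes. Single genes also had exact two-sided permutation tests over mice. Nothing shows whether samples came from separate extractions, and p-values measure the spread between samples. The members, lists and rules were chosen with earlier results of these data known. Named were the 10 members, every tested Mup feature, up to 6 genes per list past the threshold with the largest change after knockdown (otherwise up to 3 with the highest mean) and the 5 genes closest to the members' sum. Genes named beyond this rule were picked for their role or after their values were seen. Positions and promoter sequences are from RefSeq (GRCm38.p6), and the promoter blocks were matched without gaps in Python 3.11.15. Transcripts are from GENCODE vM39 and were aligned with Biopython 1.88. Figures were drawn with matplotlib 3.10.9. Alternatives were other pseudocounts, filters, scalings, models and leaving out each mouse. For 1 listed gene no value is reported here.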

Additional observations from a re-analysis of the deposited data

Results flagged for a closer look

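The summed level of the 10 members in rescue replicate 2 was 11290 TPM, while the other 3 rescue livers lay between 15414 and 15517 TPM. It was noted because its gap to the nearest liver was 0.976 of the group's range, above Dixon's 95% critical value for 4 samples. It was the only one of 33 groups of values so examined, and chance alone gives about 1 in 20.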

How the results depend on the processing

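All 10 members stayed lower in knockdown than in control under every alternative run, and 219 of their log2 fold changes kept their side of the threshold while 11 did not. For knockdown against control, 7 to 10 members passed the threshold with a mouse left out and 0 to 8 an adjusted p under 0.05. The threshold count was 9 with no filter on low values and 8 with quantile normalization or array weights. The adjusted count was 1 with no filter and 0 with only the 2 groups compared. For rescue against knockdown, the threshold count was 2 with no filter, 2 with median-of-ratios scaling, 2 with quantile normalization and 0 with array weights, and 0 to 7 with a mouse left out. For rescue against control, the adjusted count was 2 with only the 2 groups compared, the counts with array weights were 5 at the threshold and 3 adjusted, and leaving out a mouse gave 2 to 6 and 0 to 2. Mup3 turned to 0.020 in rescue against control under quantile normalization, and Mup10 ranged from -0.72 to 0.50 with a mouse left out (0.50, 0.0043 and 0.19 without control replicate 3, control replicate 4 and rescue replicate 3). The causes were not tested.

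With the mice left out in turn, the log2 ratio of the sums ranged from -1.02 to -0.69 for knockdown against control, 0.17 to 0.49 for rescue against knockdown and -0.67 to -0.37 for rescue against control. Median-of-ratios scaling moved the median of all genes in rescue against control from 0.17 to -0.0059, and the members' medians were then -1.77, 0.87 and -0.88 in the 3 comparisons. With the replicate block, 10, 4 and 3 members passed the threshold and 4, 0 and 0 the adjusted p, so it gave 1 more adjusted call (Mup20). Same-numbered samples of different groups did not deviate together, with Pearson r from -0.244 to 0.154 over 12 pairs, 2 of them over 0.1. Read depth is unknown, and shared reads limit the 7 near-identical members and other close copies such as Mup19 most.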
